A study of Mus musculus with 12 samples.

Results

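The 10 genes described here, Col1a1, Col1a2, Col3a1, Col5a1, Col5a2, Col5a3, Col11a1, Col12a1, Col14a1 and Col16a1, encode chains of the collagens that build fibrils or sit on their surface. They were taken by symbol from the 56941 genes of the deposited tables, and each symbol matched 1 row. RNA was sequenced from C2C12 cells, an established line of mouse myoblasts, the muscle precursors that fuse to form myotubes. A line labelled ChR2::tdTomato (ChR2), named for the light-gated channel channelrhodopsin-2 and a red fluorescent protein, filled 6 wells, and the wild-type line filled 6. Both lines lay on a fibrin gel 1 mm thick made with 8 mg of fibrinogen per mL. Both had 2 days in growth medium with aminocaproic acid, an inhibitor of fibrin breakdown, and then 6 days in differentiation medium, which held aminocaproic acid, IGF-1 and horse serum. The labels give neither the promoter of the transgene nor whether the line is a single clone, and mention no light for these wells. Since the labels do not call the wells of a line independent cultures, a p-value here measures the spread between wells and nothing more, and a difference between the lines cannot be told apart from the lines' histories.

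Fibrillar collagens are secreted as procollagen, 3 chains wound into a long triple helix whose end pieces are cut off before the molecules pack into fibrils. Type I collagen is the main fibril protein of most connective tissue, type III is its partner in soft and young tissue, and types V and XI are minor chains that nucleate fibrils and set their width. Types XII, XIV and XVI belong to the fibril-associated collagens with interrupted triple helices (FACITs), which decorate fibrils and link them to their surroundings. In muscle these collagens form the connective tissue around fibres, much of it made by fibroblasts, and cultured myoblasts make them too.

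The ChR2 libraries held 7388726 to 12229436 estimated counts, and 10268033 to 13628540 were found in wild-type wells 1, 3, 4 and 6. Well 2 held 1061051 and well 5 held 2809669. Wild-type wells 2 and 5 stood apart. The 7SL RNA (Rn7s1 and Rn7s2), which has no poly(A) tail, took 24.8% and 8.37% of their counts and at most 0.0341% elsewhere. Mitochondrial messages took 0.0843% and 0.211% there and at least 0.670% in each other library. Per the protocol, some samples of low input went through ribodepletion and not poly(A) selection, and it does not name them. Results are therefore given with all 12 libraries and without these 2 wells. All 10 myotube markers of the list used here, among them Myog, Ckm and Acta1, passed the filter on low counts. A lower level in these bulk samples can mean fewer cells of a type or less message per cell, which cannot be told apart.

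Most of the 10 collagens were higher in the ChR2 line, while Col1a1 was not. The rise was close to 2-fold for the fibrillar chains called, and more for the FACITs Col12a1 and Col14a1. None of the other fibrillar chain and FACIT genes tested, described further below, was called higher. Of the 10 genes, 9 passed the filter on low counts, and 7 of these rose (quasi-likelihood test of edgeR, with p adjusted over all genes tested by Benjamini and Hochberg and a threshold of 0.05). These were Col1a2, Col3a1, Col5a2, Col5a3, Col12a1, Col14a1 and Col16a1, and none of the 9 was called lower. Over all 13168 genes tested, 28.1% were called and 14.0% were called higher. Without wild-type wells 2 and 5, 8 of 9 rose, Col5a1 being added, where 35.2% of 13484 genes were called and 18.9% were called higher. The median log2 fold change (ChR2 over wild type) of the 9 genes was 0.86, or 1.00 without those wells, against -0.02 and -0.001 over all genes tested. Every ChR2 well lay above every wild-type well for 5 of the 10 genes, where 8.57% of all tested genes did so and 15.1% separated the lines in either direction. Without wells 2 and 5 this held for 8 of the 10, where 13.7% of all tested genes did so and 25.0% separated in either direction. Leaving out wild-type well 3 alone left 4 of the 7 calls.

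**Figure D1:**
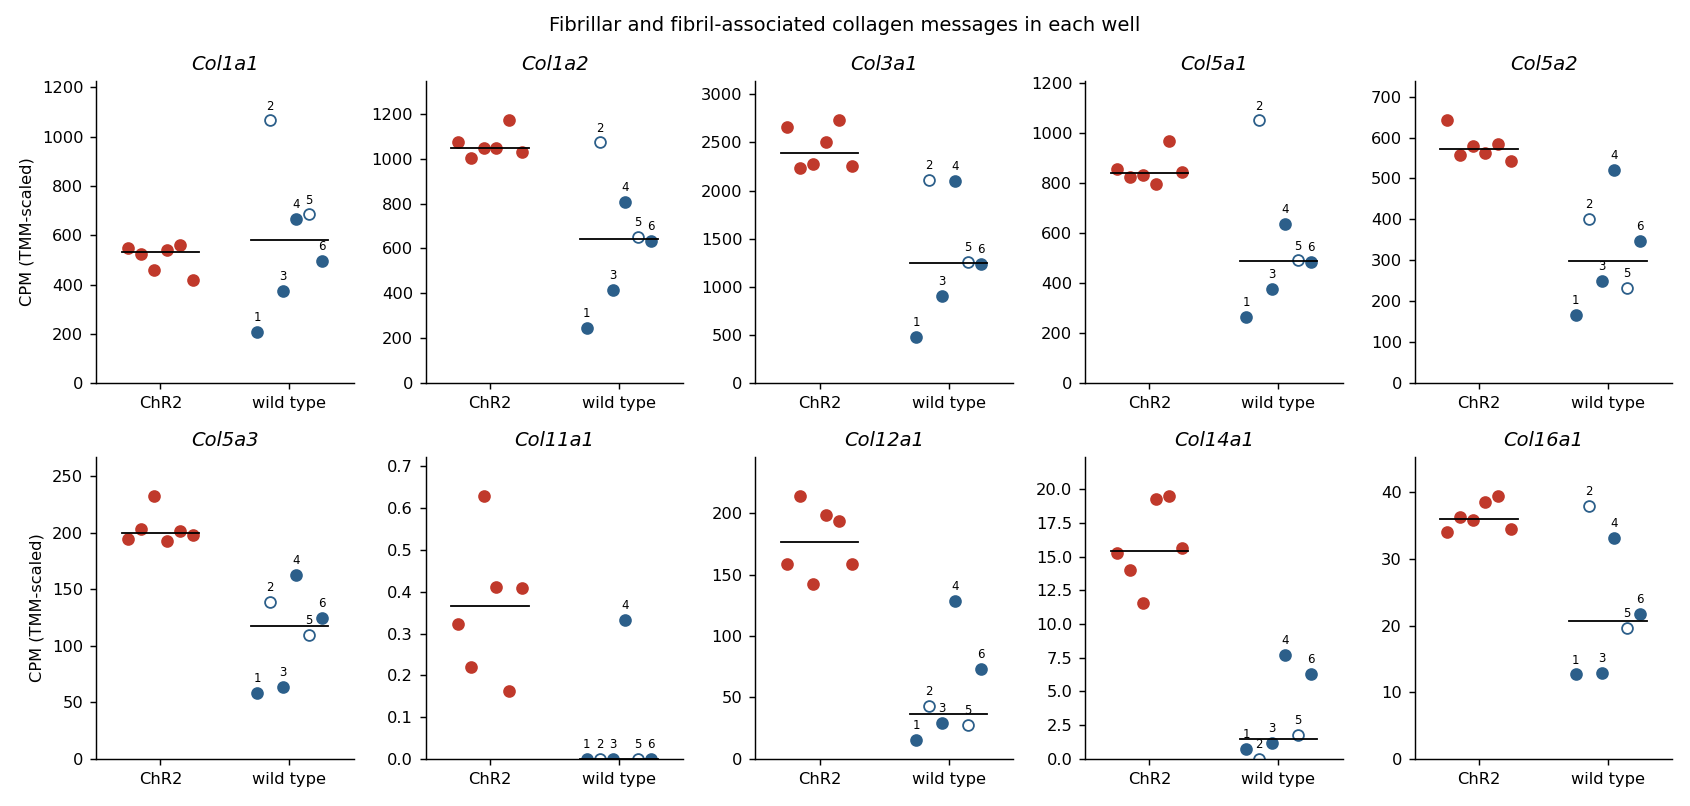
Level of each collagen message as CPM (counts scaled to a common library total by TMM) in the 6 ChR2 wells (red) and the 6 wild-type wells (blue, numbered, wells 2 and 5 open), with the median of each line as a bar. ChR2 wells lie close together, and wild-type well 1 is lowest and wells 2 and 4 highest for most genes.

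The chains of type I collagen differed from each other. Col1a1 (ENSMUSG00000001506), the α1(I) chain, ran from 417 to 559 CPM in ChR2 wells with a median of 533, and from 209 in wild-type well 1 to 1066 in well 2 with a median of 581. The ChR2 range lay wholly inside the wild-type range. The log2 fold change was -0.19 (SE 0.28, adjusted p = 0.653) over 12 libraries. Over the 10 libraries without wild-type wells 2 and 5 it was 0.23 (SE 0.25, adjusted p = 0.495), and it was 0.08 (adjusted p = 0.831) without well 2 alone, so its direction rested on that library. By limma on log2(TPM + 1) it was 0.40, a setting that moved the median of all tested genes to 0.35, and no setting called it.

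Col1a2 (ENSMUSG00000029661), the α2(I) chain, ran from 1002 to 1170.05 CPM in ChR2 wells with a median of 1047. In wild-type wells it ran from 247 in well 1 to 1072 in well 2 with a median of 644. The lines overlapped only through wild-type well 2, since the next highest, well 4, held 806 CPM. Col1a2 rose by 0.74 on the log2 scale, 1.67-fold (SE 0.26, adjusted p = 0.0459). Without wells 2 and 5 it rose by 1.03, 2.04-fold (SE 0.26, adjusted p = 0.00976). Over 12 libraries the call ended on leaving out any single ChR2 well, or wild-type well 1, 3, 5 or 6 (adjusted p at most 0.0981).

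Col3a1 (ENSMUSG00000026043), the only chain of type III collagen, was the most abundant of the 10. It ran from 2232 to 2728 CPM in ChR2 wells with a median of 2390.22, and from 482 in wild-type well 1 to 2108 in well 2 with a median of 1246. No wild-type well reached the lowest ChR2 well, though wells 2 and 4, at 2108 and 2102 CPM, came close. The log2 fold change was 0.86, 1.81-fold (SE 0.28, adjusted p = 0.0341). Without wells 2 and 5 it was 1.06, 2.09-fold (SE 0.32, adjusted p = 0.0222). Over 12 libraries the call was lost on leaving out any single ChR2 well, or wild-type well 3 or 5 (adjusted p at most 0.0765).

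Of the 3 type V chains, Col5a2 and Col5a3 rose over 12 libraries, and all 3 rose without wild-type wells 2 and 5. Col5a1 (ENSMUSG00000026837), the α1(V) chain found in most type V molecules, ran from 797 to 968 CPM in ChR2 wells with a median of 839.8, and from 264 in wild-type well 1 to 1051 in well 2 with a median of 488. Wild-type well 2 was above every ChR2 well, and the next highest, well 4 at 636 CPM, was below them all. It was not called over 12 libraries (log2 fold change 0.64, SE 0.25, adjusted p = 0.0704), and rose by 0.97, 1.96-fold, without wells 2 and 5 (SE 0.19, adjusted p = 0.00185). Without well 2 alone it also passed (0.94, adjusted p = 0.00234).

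Col5a2 (ENSMUSG00000026042), the α2(V) chain, ran from 542 to 642 CPM in ChR2 wells with a median of 572, and from 167 to 520.2 CPM in wild-type wells 1 and 4 with a median of 299. The lines did not overlap. It rose by 0.86, 1.81-fold (SE 0.22, adjusted p = 0.0104), and by 0.86 without wells 2 and 5 (SE 0.25, adjusted p = 0.0185). Col5a2 and Col3a1 are direct neighbours on chromosome 1 in the RefSeq annotation of GRCm38.p6. Col5a3 (ENSMUSG00000004098), the α3(V) chain of a less common type V molecule, ran from 192 to 233 CPM with a median of 199.995 against 58.6 to 163 CPM with a median of 117. The lines did not overlap for it either. It rose by 0.90, 1.87-fold (SE 0.22, adjusted p = 0.00698), and by 1.00 without wells 2 and 5 (SE 0.26, adjusted p = 0.014). The calls of Col5a2 and Col5a3 held without each library in turn.

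Col11a1 (ENSMUSG00000027966), the α1(XI) chain best known from cartilage and a relative of Col5a1, was at the edge of detection. It had from 2 to 5 counts in each ChR2 library, 4 counts in wild-type well 4 and 0 in the other 5 wild-type libraries. A count of 0 allows up to 3 counts, which overlaps the ChR2 range, and the gene did not pass the filter, so no fold change is given.

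The FACITs Col12a1 and Col14a1 showed the largest differences of the 9 genes tested. Col12a1 (ENSMUSG00000032332), the α1(XII) chain, ran from 142 to 214 CPM in ChR2 wells with a median of 176, and from 15.7 in wild-type well 1 to 129 in well 4 with a median of 36.4. The lines did not overlap, and well 6 at 73.0 CPM was the second of the wild-type wells. It rose by 1.72, 3.29-fold (SE 0.40, adjusted p = 0.0065), and by 1.54, 2.90-fold, without wells 2 and 5 (SE 0.52, adjusted p = 0.0464). Col14a1 (ENSMUSG00000022371), the α1(XIV) chain, which binds fibrils through decorin, had 92 to 241 counts in ChR2 libraries. In wild-type wells 1 to 6 it had 8, 0, 13, 93, 5 and 86 counts, so wells 4 and 6 held nearly all of them. In CPM this was 11.6 to 19.5 with a median of 15.4, against 0 to 7.72 with a median of 1.49. The lines did not overlap, and the log2 fold change was 2.13, 4.38-fold (SE 0.46, adjusted p = 0.00402). Without wells 2 and 5 it was 1.98, 3.94-fold (SE 0.53, adjusted p = 0.0167). Both calls held without each library in turn.

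Col16a1 (ENSMUSG00000040690), the α1(XVI) chain, found in small amounts in many matrices, ran from 34.1 to 39.4 CPM in ChR2 wells with a median of 36.0. In wild-type wells it ran from 12.7 in well 1 to 38.0 in well 2, whose value rests on 29 counts, with a median of 20.7. It rose by 0.76, 1.69-fold (SE 0.23, adjusted p = 0.0231), and by 0.87, 1.82-fold, without wells 2 and 5 (SE 0.24, adjusted p = 0.0146). Without wild-type well 3 it was not called (adjusted p = 0.0552).

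**Figure D2:**
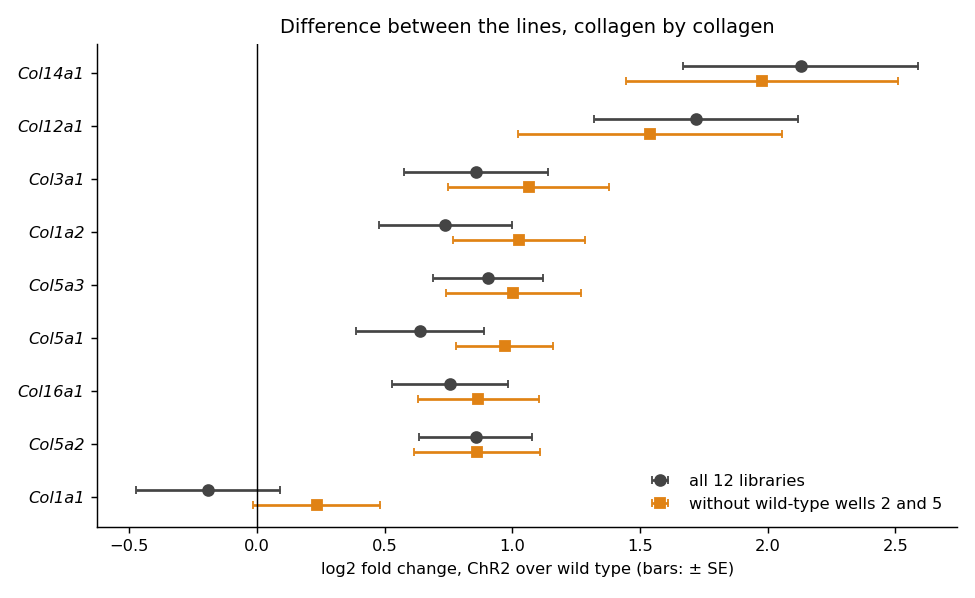
Log2 fold change, ChR2 over wild type, of the 9 tested collagens with its SE, over all 12 libraries (grey circles) and without wild-type wells 2 and 5 (orange squares). Col12a1 and Col14a1 lie farthest to the right, and Col1a1 lies at -0.19 and 0.23, on either side of 0.

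The wells of the wild-type line varied more than those of the ChR2 line. The coefficient of variation of the 6 ChR2 wells lay between 5.47% for Col1a2 and 19.3% for Col14a1 among the 9 tested genes. In the 4 wild-type wells other than 2 and 5 it lay between 36.0% for Col5a1 and 89.0% for Col14a1. For each of the 9 genes, well 4 was the highest of these 4 wells and well 1 the lowest. The 10 genes took from 0.550% to 0.654% of all counts in ChR2 libraries. They took 0.157% in wild-type well 1, 0.257% in well 3, 0.343% in well 6 and 0.521% in well 4, and 0.426% and 0.347% in wells 2 and 5.

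Levels of different genes were compared in TPM, which divides by transcript length, and without wild-type wells 2 and 5, where 7SL RNA takes part of the total. In ChR2 wells the order of mean TPM was Col3a1 (773 ± 103, SD, n = 6), Col1a2 (269 ± 29.0), Col5a1 (165 ± 15.9), Col5a2 (116 ± 16.6), Col1a1 (115 ± 15.3), Col5a3 (43.9 ± 6.41), Col12a1 (32.0 ± 2.86), Col16a1 (14.1 ± 2.70) and Col14a1 (4.25 ± 0.79). The ranges of neighbours overlapped from Col5a1 to Col1a1, with 139 to 179.5, 99.3 to 142 and 88.8 to 135 TPM, and those of the other neighbours did not. Within each ChR2 well Col5a1 exceeded both Col5a2 and Col1a1, and the order of the latter differed between wells. In the 4 wild-type wells Col1a1 took the third place, at 104 ± 40.3 TPM (SD, n = 4), after Col3a1 (362 ± 203) and Col1a2 (140 ± 60.6). Col5a1 (86.4 ± 27.4) and Col5a2 (66.5 ± 30.5) came after it, followed by Col5a3 (22.8 ± 10.6), Col12a1 (12.1 ± 7.96), Col16a1 (9.58 ± 3.77) and Col14a1 (1.02 ± 0.836). The ranges of all neighbours from Col3a1 to Col16a1 overlapped across these 4 wells, and those of Col16a1 and Col14a1 did not. Within each of these wells, however, the order from Col3a1 to Col12a1 held. In well 1 alone Col16a1 exceeded Col12a1. Col11a1 was last in both, at no more than 0.413 TPM in any library.

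As a share of the TPM of the 10 genes, Col1a1 made up 6.56% to 8.35% in ChR2 wells with a median of 7.51%, and 11.7% to 17.9% in the 6 wild-type wells with a median of 14.0%. Col1a2 made up 16.8% to 17.9% with a median of 17.7%, and 16.3% to 19.6% with a median of 18.0%. The share of Col1a1 did not overlap between the lines, while the share of Col1a2 did. Col3a1 made up 48.3% to 52.4% in ChR2 and 39.5% to 49.0% in wild-type wells.

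**Figure D3:**
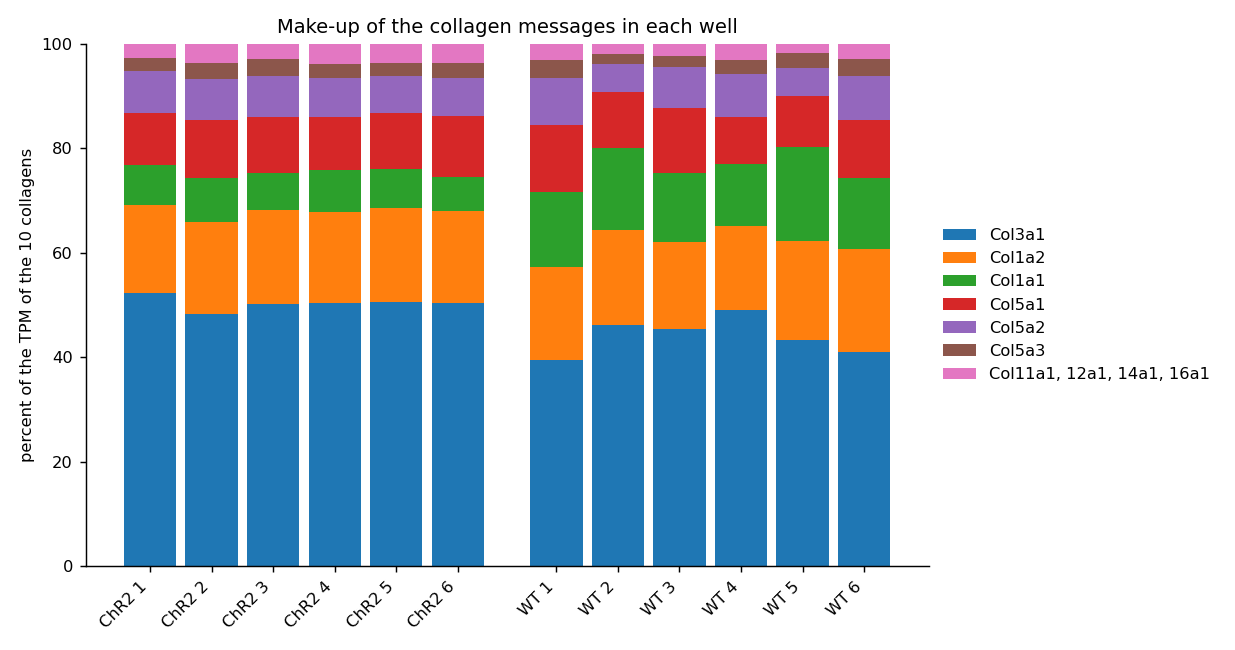
Share of each collagen in the summed TPM of the 10 genes, in percent, for each well, with the 4 least abundant genes drawn together. The Col1a1 band (green) spans 6.56% to 8.35% in ChR2 wells and 11.7% to 17.9% in wild-type wells.

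Ratios of chains within a library do not depend on how libraries are scaled, and 8 were compared by a two-sided exact permutation test over wells, with Benjamini-Hochberg adjustment over the 8. The smallest p these tests allow is 0.00216 with 6 against 6 wells and 0.00952 with 6 against 4. Type I procollagen mostly holds more α1 than α2 chains. The ratio of Col1a1 to Col1a2 TPM was 0.37 to 0.473 in ChR2 wells with a median of 0.433, and 0.699 in wild-type well 6 to 0.94 in well 5 with a median of 0.803. Col1a2 therefore exceeded Col1a1 per length in every well, and the lines did not overlap. The mean log2 ratio was -1.23 ± 0.14 (SD, n = 6) in ChR2 and -0.32 ± 0.16 (SD, n = 6) in wild-type wells, a difference of -0.91 (exact permutation p = 0.00216, adjusted p = 0.00433). Without wells 2 and 5 the difference was -0.83 (exact permutation p = 0.00952, adjusted p = 0.019). With CPM in place of TPM it was -0.91.

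With Col1a1 as the denominator, the ratios of Col3a1, Col5a1 and Col12a1 to it were higher in ChR2 wells. They too put Col1a1 lower relative to its partner. The ratio of Col3a1 to Col1a1 ran from 5.78 to 7.67 in ChR2 wells with a median of 6.85, and from 2.42 to 4.17 in wild-type wells with a median of 2.96. Its log2 difference was 1.13, or 1.03 without wells 2 and 5. The ratio of Col5a1 to Col1a1 ran from 1.27 to 1.77 with a median of 1.40, against 0.547 to 0.933 with a median of 0.786, a log2 difference of 0.91, or 0.76. The ratio of Col12a1 to Col1a1 ran from 0.232 to 0.328 with a median of 0.29 against 0.0227 to 0.146 with a median of 0.0807, a log2 difference of 1.99, or 1.45. For these 3 ratios the lines did not overlap and the p-values were those of the Col1a1 to Col1a2 ratio, the smallest the design allows. The 4 ratios share Col1a1, so they are not independent of each other.

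Ratios among the type V chains overlapped between the lines. The ratio of Col5a1 to Col5a2 ran from 1.26 to 1.58 in ChR2 and from 1.102 to 2.05 in wild-type wells (log2 difference -0.09, exact permutation p = 0.530, adjusted p = 0.530). Without wells 2 and 5, which held the highest values, 2.05 and 1.82, the difference was 0.08 (adjusted p = 0.588 by the same exact test). The ratio of Col5a3 to Col5a1 ran from 0.241 to 0.315 and from 0.174 to 0.306 (log2 difference 0.12, exact permutation p = 0.461, adjusted p = 0.527). These tests do not show that the ratios are equal. The ratio of Col14a1 to Col12a1 was higher in ChR2 wells, at 0.107 to 0.155 with a median of 0.136, against 0.00407 to 0.11 with a median of 0.0896. The ranges overlapped, and the log2 difference was 1.42 (exact permutation p = 0.00866, adjusted p = 0.0139), or 0.81 without wells 2 and 5 (exact permutation p = 0.019, adjusted p = 0.0305). It depends on the 0.01 TPM added before taking logs, since wild-type well 2 held no Col14a1 count, and was 0.70 (adjusted p = 0.0797 by the exact test) with 0.1 TPM. The ratio of Col11a1 to Col5a1 rests on at most 5 counts of Col11a1 in a library. With 0.01 TPM added it was higher in ChR2 wells (exact permutation p = 0.0368, adjusted p = 0.0491), with overlapping ranges. Without wild-type wells 2 and 5 it was not called (adjusted p = 0.114 by the exact test), nor on leaving out any single well other than ChR2 well 1 and wild-type well 4 (adjusted p at most 0.0981). With 0.1 TPM added its log2 difference changed sign, to -0.25 (adjusted p = 0.530 by the exact test).

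**Figure D4:**
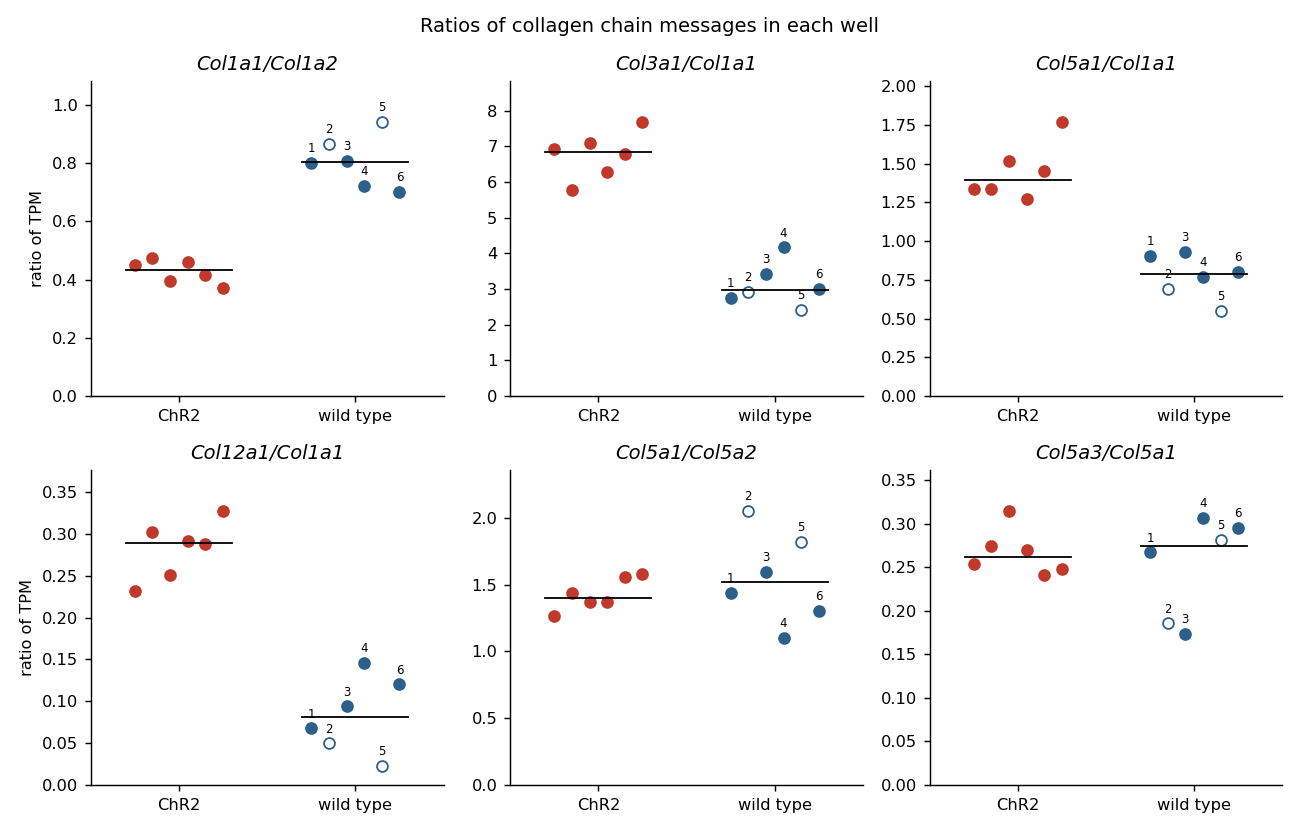
Ratio of the TPM of 2 collagen genes in each of the 6 ChR2 wells (red) and 6 wild-type wells (blue, numbered, wells 2 and 5 open), with medians as bars. The 4 ratios that hold Col1a1 separate the lines, while those among type V chains overlap.

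The profile of each gene over the 10 libraries other than wild-type wells 2 and 5 was compared with those of the type I chains, by the root-mean-square difference of log2 CPM after centring each gene on its mean. Among 10963 genes with at least 5 CPM, Col5a2 and Col3a1 were the sixth and seventh nearest to Col1a2 (0.129 for both), Col5a1 ranked 11, Col5a3 ranked 24 and Col16a1 ranked 48. Col12a1 and Col14a1, whose range between wells is wider, ranked 1709 and 7469, and Col1a1 ranked 623 (0.414). The 5 genes nearest to Col1a1 were Colec12 (0.116), Islr (0.13), Itpkb (0.162), Agap1 (0.167) and Exoc4 (0.17). The nearest collagen to Col1a1 of the 10 was Col5a2, at rank 585 (0.334). These distances span the wells of both lines, so they include the differences between the lines given above and are not separate from them. They describe the libraries and carry no test.

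Promoter windows, from 250 bases before to 50 bases after the start of the gene, were found in RefSeq (GRCm38.p6) for 6 of the 10 genes, Col1a2, Col3a1, Col5a1, Col5a3, Col11a1 and Col16a1. Those of the 4 genes called higher over all 12 libraries are shown. Col5a1, called higher without wild-type wells 2 and 5 but not over all 12 libraries, and Col11a1, not tested, are not shown. Capitals mark 5 short motifs on either strand: CCAAT of the factor NF-Y, TATAAA of the TATA box, GGGCGG of the factor Sp1, CAGACA around the Smad core, and GGAATG of TEAD factors. None of their matches overlapped.
Col1a2 (chr6:4505368-4505667, plus strand): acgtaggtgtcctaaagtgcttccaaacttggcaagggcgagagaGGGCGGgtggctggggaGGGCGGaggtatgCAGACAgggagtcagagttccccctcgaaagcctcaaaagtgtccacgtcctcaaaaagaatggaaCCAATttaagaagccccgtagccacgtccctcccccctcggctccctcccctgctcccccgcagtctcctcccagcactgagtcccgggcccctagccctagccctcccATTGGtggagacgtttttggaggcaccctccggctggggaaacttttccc
Col3a1 (chr1:45311288-45311587, plus strand): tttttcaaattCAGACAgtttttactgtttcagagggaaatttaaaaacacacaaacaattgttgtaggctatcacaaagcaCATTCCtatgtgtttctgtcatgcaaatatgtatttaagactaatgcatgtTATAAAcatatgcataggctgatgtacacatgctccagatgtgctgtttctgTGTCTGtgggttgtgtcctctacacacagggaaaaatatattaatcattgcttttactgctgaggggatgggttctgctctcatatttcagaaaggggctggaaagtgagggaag
Col5a3 (chr9:20815018-20815317, minus strand): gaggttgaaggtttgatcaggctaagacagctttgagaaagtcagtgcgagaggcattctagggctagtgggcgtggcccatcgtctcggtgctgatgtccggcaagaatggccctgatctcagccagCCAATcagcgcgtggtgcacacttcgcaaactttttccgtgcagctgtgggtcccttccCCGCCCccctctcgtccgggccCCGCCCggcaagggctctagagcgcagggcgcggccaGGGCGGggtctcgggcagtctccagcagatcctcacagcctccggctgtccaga
Col16a1 (chr4:130047590-130047889, plus strand): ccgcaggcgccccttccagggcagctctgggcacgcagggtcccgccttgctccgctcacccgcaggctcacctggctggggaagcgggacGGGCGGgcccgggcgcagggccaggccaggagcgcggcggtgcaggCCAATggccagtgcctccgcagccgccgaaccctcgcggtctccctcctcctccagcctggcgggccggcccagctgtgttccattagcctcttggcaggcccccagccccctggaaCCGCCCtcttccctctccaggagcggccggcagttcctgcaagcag

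CCAAT was found in 4 of the 6 windows, and in 37.4% of all 32851 windows of that length. GGGCGG, also called the GC box, was found in 5 of 6 and in 35.7% of all. Col3a1 was the 1 window of the 6 without it, and the 1 with TATAAA (13.62% of all) and with GGAATG (14.7% of all). CAGACA was found in 3 of 6 and in 21.0% of all. In Col1a2 the CCAAT letters lay 109 bases before the annotated start and, on the opposite strand, at that start itself. Where transcription begins was not checked, and a motif outside a window would be missed. A match describes the letters and is not a bound site.

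The counts of calls over 12 libraries in the lists that follow stand against 28.1% called over all genes tested, 14.0% higher and 14.1% lower. Those without wild-type wells 2 and 5 stand against 35.2% called, 18.9% higher and 16.3% lower. Of 4 other fibrillar chain genes, 3 were tested and 1 fell, Col11a2 (the α2(XI) chain), with a log2 fold change of -0.98 (SE 0.24, adjusted p = 0.00858) and overlapping lines. Of 7 other FACIT genes, 2 were tested and neither was called. Col19a1 and Col20a1 had median levels of 1.77 and 1.30 CPM in the ChR2 line, beside 0.932 and 1.48 CPM in the wild type (log2 fold changes 0.33 and -0.32, adjusted p = 0.723 and 0.522). Of 23 network, microfibril and membrane collagen genes, 13 were tested, 9 rose and 2 fell. Col6a2, a chain of the beaded filaments of type VI collagen, ran from 122 to 197 CPM in the ChR2 line and from 23.0 to 111 CPM in the wild type (log2 fold change 1.55, adjusted p = 0.0027). Col15a1, a basement membrane zone collagen, rose by 2.70 from a wild-type median of 0.915 CPM. The membrane collagens Col25a1 and Col23a1 fell by 2.86 and 1.05, with overlapping lines. Without wild-type well 6, its highest, Col25a1 fell by 2.11. The call of Col23a1 was lost on leaving out ChR2 well 5 or wild-type well 4 (adjusted p at most 0.0512).

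Many of the genes that fold, trim and cross-link procollagen rose in the ChR2 line. Of 24 tested genes of folding, hydroxylation and export, 13 rose and 1 fell, and the median log2 fold change was 0.60. The counts were 18 and 1 without wild-type wells 2 and 5. Plod2, a lysyl hydroxylase whose products cross-link fibrils, ran from 352 to 437 CPM in ChR2 wells with a median of 374, and from 93.1 to 270.4 CPM in wild-type wells with a median of 161 (log2 fold change 1.23, SE 0.20, adjusted p = 0.00073). P3h2, a prolyl 3-hydroxylase, rose by 2.28 from a median of 1.13 CPM in wild-type wells, and Tmem38b, an endoplasmic reticulum cation channel, fell by 0.72. None of these 3 genes overlapped between the lines.

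Of 10 tested genes of procollagen processing and cross-linking, 9 rose and none fell, with a median of 0.89. Pcolce2, an enhancer of C-propeptide removal, ran from 38.9 to 47.9 CPM against 13.9 to 21.8 CPM (log2 fold change 1.37, SE 0.13, adjusted p = 1.3e-05). Loxl4, of the lysyl oxidase family that cross-links collagen, rose by 2.12 (SE 0.20, adjusted p = 1.3e-05). Of 18 tested fibril-binding genes, 15 rose and none fell, with a median of 1.27. The 3 type VI chains are on this list and on the one of network collagens. The small leucine-rich proteoglycans Podn and Fmod rose by 3.43 and 2.93, from wild-type medians of 0.0911 and 0.99 CPM. Neither these 2 genes nor Pcolce2 and Loxl4 overlapped between the lines.

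**Figure D5:**
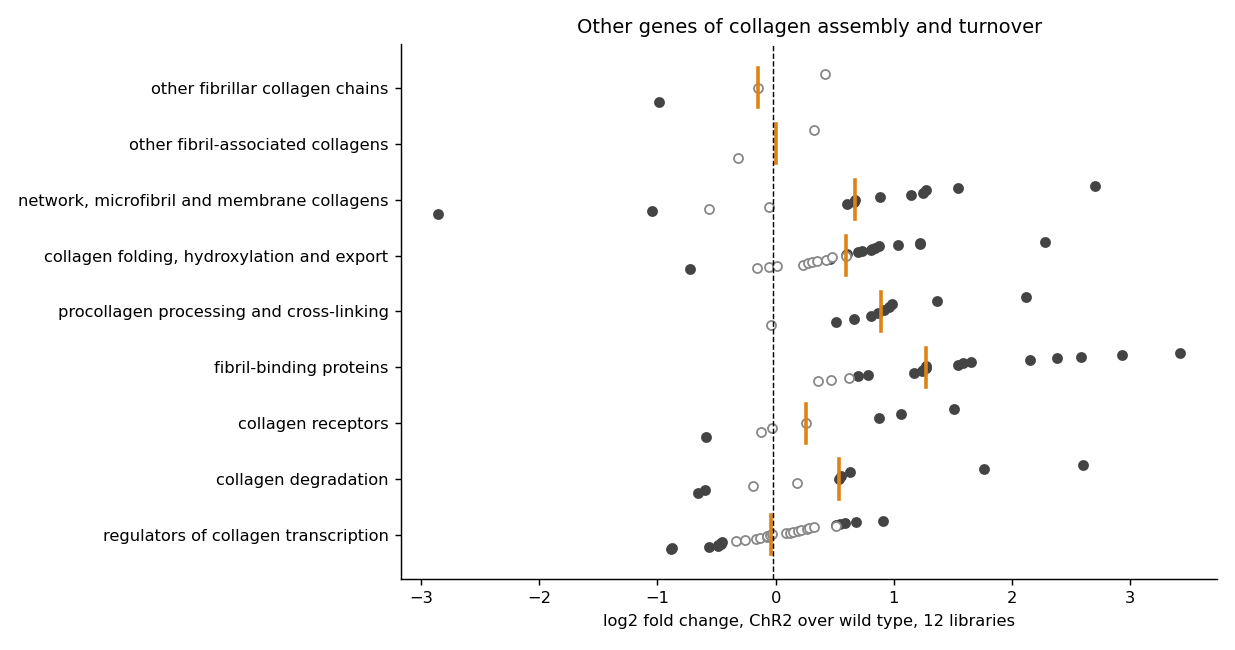
Log2 fold change over 12 libraries of each tested gene of 9 other lists, filled where called and open where not, with the median of a list as an orange bar and that of all genes tested (-0.02) as a dashed line. The medians of the fibril-binding and procollagen processing lists lie farthest to the right, at 1.27 and 0.89.

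Calls among receptors, proteases and regulators went in both directions. Of 7 tested collagen receptor genes, 3 rose and 1 fell. The tyrosine kinase receptor Ddr2 ran from 203 to 277 CPM in the ChR2 line and from 78.2 to 180.2 CPM in the wild type (log2 fold change 1.07, adjusted p = 0.00112). Itga11, the α11 integrin chain for fibrillar collagen, differed by 1.51 on the log2 scale (adjusted p = 0.0386), or 1.38 without wells 2 and 5 (adjusted p = 0.114) and 2.51, still called, without wild-type well 4. Its call was also lost on leaving out any single well other than ChR2 well 6 and wild-type well 4 (adjusted p at most 0.0846). Adgrg1, an adhesion receptor that binds type III collagen, had one of -0.59 (adjusted p = 0.0292), a call lost on leaving out ChR2 well 2, 4, 5 or 6 or wild-type well 3 (adjusted p at most 0.0742), and the difference was -0.37 without the last of these. The list held 4 calls over 12 libraries, and 2 without ChR2 well 2, 4 or 5 or wild-type well 3.

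Of 9 tested collagen degradation genes, 5 rose and 2 fell. The gelatinase Mmp2 and the membrane protease Mmp16 rose by 1.77 and 2.60, with no overlap, and cathepsin L (Ctsl) fell by 0.60. Mmp2 ran from 153 to 211 CPM in ChR2 and from 29.7 to 79.1 CPM in wild-type wells. Mmp16 was scarce, at 1.76 to 2.91 CPM against 0 to 1.31 CPM with a median of 0.339. Its wild-type level, and so the size of its rise, rests on few counts. Mmp15 differed by -0.65 on the log2 scale (adjusted p = 0.0372), and its call was lost on leaving out ChR2 well 3, 4, 5 or 6 or wild-type well 2, 3, 4 or 6 (adjusted p at most 0.0847). Of 30 tested regulators of collagen transcription, 5 rose and 8 fell, with a median of -0.04. Rises made up a share near the 14.0% over all genes tested, and falls a larger share than the 14.1% over all. Without wild-type wells 2 and 5, 8 rose and 4 fell, where 18.9% of all genes tested were called higher and 16.3% lower. Nfyb, a subunit of the CCAAT-binding factor, ran from 30.3 to 34.7 CPM against 7.86 to 26.1 CPM (log2 fold change 0.68, adjusted p = 0.00653). The other subunit genes, Nfya and Nfyc, were not called (0.28 and -0.07, edgeR adjusted p = 0.202 and 0.774). Without wells 2 and 5 Nfya rose by 0.29 (edgeR adjusted p = 0.0131) and Nfyc was not called (-0.21, edgeR adjusted p = 0.0968). Klf4 rose by 0.91. Scx, the tendon factor that activates Col1a1 and Col1a2 in tendon cells, had a median of 51.1 CPM in the ChR2 line, beside 89.3 CPM in the wild type, and fell by 0.88 (adjusted p = 0.00444). Cebpb differed by -0.88 on the log2 scale (adjusted p = 0.0372), or -0.34 without wells 2 and 5 (adjusted p = 0.116). Its call was also lost on leaving out any single ChR2 well, or wild-type well 2 or 5 (adjusted p at most 0.083). The list held 13 calls over 12 libraries, and 7 without ChR2 well 2, 3, 4, 5 or 6 or wild-type well 3.

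Most of the fibroblast markers tested differed between the lines in the same direction as most of the 10 collagens. Of 14 listed, 11 were tested, and 9 rose and none fell, with the same counts without wild-type wells 2 and 5. Their summed level ran from 1455 to 1999 CPM in ChR2 wells, from 938 to 1215 CPM in wild-type wells 1, 3, 4 and 6, and was 554 and 609 CPM in wells 2 and 5. Most of that sum was S100a4 and Ly6a, which rose by 0.93 and 0.43 on the log2 scale. The others that rose were Dpt (2.58), Scara5 (2.15), Mfap5 (1.61), Pdgfrb (0.97), Fbln1 (0.95), Pi16 (0.90) and Cd34 (0.72). Dcn was not called (0.62, edgeR adjusted p = 0.114). Tcf21 was at 0 in every library, Thy1 had at most 3 counts in any, and Lum did not pass the filter. Pdgfra had a mean of 6.98 ± 1.53 CPM in the ChR2 line and one of 8.92 ± 3.19 CPM in the wild type (SD, n = 6, edgeR adjusted p = 0.401). Dcn, Dpt and Lum are also on the list of fibril-binding genes. Within the wild-type line the sum was 1152 CPM in well 4 and 938 CPM in well 1, beside a more than 2-fold range of most collagens between these wells. Among wild-type wells 1, 3, 4 and 6 the sum was highest in well 6 and lowest in well 1, and each of the 9 tested collagens was highest in well 4 and lowest in well 1. Over all wild-type wells the sum was lowest in well 2. There Col1a1, Col1a2 and Col3a1 were highest by CPM but lowest by TPM, so the place of that well depends on the unit.

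Of the 8 tendon, 8 cartilage and 8 bone markers listed, 3, 5 and 3 stayed at or under 3 counts in each library. The tendon genes Tnmd, Kera and Comp, the cartilage genes Acan, Col9a1, Hapln1 and Col10a1, and the bone genes Sp7, Bglap and Ibsp had at most 3 counts in any library, and Comp is on the cartilage list too. Others were well detected, with mean ChR2 levels of 1488 CPM for Spp1, 240.4 CPM for Tnc, 87.0 CPM for Egr1 and 26.8 CPM for Runx2, none of them called over 12 libraries. Of the genes tested on these lists, 1 of 3 tendon genes fell (Scx), 1 of 1 cartilage genes rose (Sox9) and none of 4 bone genes was called. Without wild-type wells 2 and 5 these counts were the same except that Tnc rose (log2 fold change 0.55, adjusted p = 0.0458). Summed levels ran from 341 to 438 CPM in the ChR2 line and from 253 to 415 CPM in the wild type for the tendon list, from 64.3 to 80.9 and from 34.1 to 78.1 CPM for the cartilage list, and from 1284 to 1792 and from 562 to 1603 CPM for the bone list. Endothelial and macrophage lists had 1 tested gene each, not called, and sums of at most 4.99 and 9.18 CPM in any library. Of the 10 myotube markers 3 fell, Myog, Des and Ttn, and none rose, and without wild-type wells 2 and 5 these were Myog, Ttn and Mymk. Their summed level ran from 12641 to 15487 CPM in ChR2 wells and from 11460.2 to 18699 CPM in wild-type wells 1, 3, 4 and 6, with a highest value of 29817 CPM over all 6. The part of the fibroblast-type and myotube messages in the collagen differences was not tested.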

How the data were processed

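RNA of 12 wells was sequenced with 14 PCR cycles and pairs of 50 bases, per the labels' protocols. The authors deposited estimated counts per gene, not scaled between libraries, and TPM, which are scaled by transcript length and to the same total in each library. The submitters' processing notes name Salmon, STAR, BWA 0.7.12-r1039 and bedtools 2.25.0 and list mm10, hg19 and GRCm39 as builds, with no role for any of them.

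Estimated counts were rounded. Genes were kept by filterByExpr (minimum count 10), scaled by TMM and tested by edgeR 4.0.16 (R 4.3.3), quasi-likelihood with robust dispersion and genotype as the term, with Benjamini-Hochberg adjusted p under 0.05 over all genes as the threshold. SE is the log2 fold change divided by the root of F. Ratios of TPM (0.01 added) were tested in scipy 1.17.1. Alternatives used DESeq2 1.42.0 and limma 3.58.1. The fit was checked on simulated counts. Libraries of a line differed by more than sampling noise (lowest chi-square per degree of freedom 5.09), so each counted once. Depth limits counting error only, since reads carry no molecular identifiers.

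The members, 9 gene lists, 7 marker lists and settings were chosen with earlier results of these data known. Besides the 10 collagens, the genes named are the 2 largest rises and 2 largest falls among called genes of at least 1 CPM in each list, or the 2 most abundant where none was called (25 genes). The others are the 5 nearest to Col1a1 in profile, genes of the marker lists, and Nfya and Nfyc beside Nfyb. S100a4 and Ly6a as the bulk of the fibroblast sum, the detected tendon and bone markers, Nfya and Nfyc, and the profile ranking around Col1a2 were chosen after values were seen. Proteins were not analysed here. Figures were drawn with matplotlib 3.10.9.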

Additional observations from a re-analysis of the deposited data

Results flagged for a closer look

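Values of the 2 lines were examined for single wells far from the rest of their line, over 84 groups of 6 wells (genes and chain ratios), and 6 were found. Chance flags about 1 group in 20, which over 84 groups is close to the number found. Among the collagens, Col5a1 was at 968 CPM in ChR2 well 5, with the next ChR2 well at 858 CPM. Col5a3 was at 233 CPM in ChR2 well 3, with the next at 204 CPM. Col11a1 was at 0.332 CPM in wild-type well 4, which is 4 counts, and at 0 in the other wild-type wells.

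Among the other genes, Itga11 was at 10.4 CPM in wild-type well 4, with the next well at 3.52 CPM. Adgrg1 was at 75.7 CPM in wild-type well 3, with the next at 44.6 CPM. Cebpb was at 30.4 CPM in ChR2 well 2, below the next at 39.6 CPM.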

How the results depend on the processing

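Depth was lowest in wild-type wells 2 and 5, and Col11a1 had at most 5 counts in any library. The 4 ratios that hold Col1a1 separate the lines fully, so leaving out a library cannot end their calls and says nothing about stability. The Col11a1 to Col5a1 ratio (log2 difference 1.88) was 1.84 and not called without wild-type wells 2 and 5, -0.25 with 0.1 TPM added, and 1.57 to 2.45 on leaving out 1 library. The Col5a1 to Col5a2 ratio, not called, changed sign without wild-type wells 2 and 5 (0.0809). The Col14a1 to Col12a1 ratio was 0.70 and not called with 0.1 TPM added. Col1a1, never called, had a log2 fold change above 0 without wild-type wells 2 and 5 (0.23), with a covariate for them (0.22), by limma voom with quality weights (0.19), and by limma on log2(TPM + 1) and log2(TPM + 0.1) (0.40 for both). Leaving out 1 library gave -0.37 to 0.0817. Col5a1 passed without those wells (0.97), with the covariate (0.95), with the replicate number as a block (0.77), by DESeq2's Wald test (0.64), by voom (0.96) and by limma on TPM with 1 or 0.1 added (1.30 and 1.32), and leaving out 1 library gave 0.49 to 0.94.

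By limma on log2(TPM + 0.1), Col1a2 (1.31), Col5a2 (1.41), Col5a3 (1.43) and Col16a1 (0.91) were not called, and Col16a1 was not with 1 TPM added either (0.82). Leaving out 1 library gave 0.57 to 0.96 for Col1a2, 0.68 to 1.05 for Col3a1 and 0.62 to 0.96 for Col16a1. Limma on TPM moved the median of all tested genes to 0.35 and 0.43 and called fewer genes, 620 with 1 TPM added and 271 with 0.1, against 3701; the cause was not tested. With 0.1 TPM it called 4 of the 10 collagens. Leaving out 1 library left 4 to 8 of them called.

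With 1 and 0.1 TPM added, limma called 0 and 0 other fibrillar chains, 7 and 4 network collagens, 3 and 2 folding genes, 4 and 3 processing genes, 1 and 1 degradation genes and 1 and 0 regulators, and 0 receptors with 0.1. Voom called 2 other fibrillar chains. Regulators called numbered 13 over 12 libraries, 7 with upper-quartile scaling and 7 with the block; leaving out 1 library gave 7 to 14 regulators and 2 to 4 receptors. Among the 25 other named genes, 33 calls were lost over the leave-one-out fits and 34 over the other alternatives, and the 1 change of direction was Col19a1, not called, whose log2 fold change ran from -0.00013 to 0.84 on leaving out 1 library. The filter of 1 CPM in 6 libraries kept the same number of genes as the main one, 13168.

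Wells of the lines share only a replicate number: deviations of same-numbered wells from their line means correlated between -0.144 and 0.0954, and 1 of 6 ChR2 wells correlated best with its own number. With the number as a block, 2641 genes were called. Among the 10 collagens and the 25 other genes named by rule, Col5a1 gained a call and Col23a1, Mmp15 and Cebpb lost theirs (adjusted p = 0.0827, 0.092 and 0.104 by edgeR).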
